A study of Mus musculus with 6 samples.

Results

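The uterus of the juvenile mouse was described from the 3 arrays labelled Arid1a f/f, out of 6 arrays in the series. These were uteri of intact, untreated female mice at 2 weeks of age. By the usual notation f/f marks an Arid1a gene whose 2 copies carry loxP sites, and the labels name no Cre for this group. The other 3 arrays, labelled Arid1a d/d, were not compared here. Labelled RNA made from 500 ng of total RNA was hybridised to Affymetrix arrays. The labels do not say whether each array was made from 1 mouse or from a pool, or whether the 3 arrays came from separate mice, so the spread given below may be partly technical.

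The uterus grows from the Müllerian ducts, and at birth it is a simple tube of epithelium inside a loose mesenchyme. After birth the mesenchyme separates into endometrial stroma and smooth muscle, and glands bud from the luminal epithelium into the stroma. This happens before puberty, when the ovary makes little estrogen and progesterone, and it depends on exchange of Wnt, hedgehog, growth factor and retinoid signals between epithelium and stroma. Hox genes give the duct its position along the body axis, and estrogen and progesterone receptors make the tissue ready for the hormones of adult life.

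Each gene was represented by the brightest of its probe sets, and its level is the log2 of the deposited intensity. Of 41420 probe sets, 31562 carried 1 gene symbol, which gave 16813 genes. A gene was called near background when its mean was at or below 3.79 (an intensity of 13.8), the 95th percentile of 68 genes restricted to other organs. It was called high from 7.55 (an intensity of 188), the 90th percentile of all genes, and moderate in between. By these limits 1682 genes were high, a share fixed by the rule, 7308 (43.5%) moderate and 7823 (46.5%) near background. The bands describe the brightness of a probe set, which also depends on how well its probes bind, so they do not order transcripts by abundance. A high call rests on the brightest probe set. Of 1234 high genes with more than 1 probe set, 681 also had a probe set at or below the background limit. A gene near background had a mean no higher than the limit, which is not a detection call, and it may still be expressed. Of the 7823 genes near background, 256 were above the limit on at least 1 array. In the lists below, 664 of 806 listed genes were measured, and 135 of them (20.3%) were high, 288 (43.4%) moderate and 241 (36.3%) near background. The other listed genes matched no probe set with 1 symbol in the deposited values, so their levels are unknown. Near the lower limit, Fgfr3 averaged 3.79, just inside the background band, and Acod1 averaged 3.80, just outside it. Near the upper limit, Hoxa11 and Prom1 both averaged 7.55 and fell on opposite sides. With the lower limit set at the highest Y-linked gene instead (2.56), 135 listed genes were near background in place of 241, so the count near background rests on the limit. Among lists where no such count is given below, it went from 5 to 1 for estrogen-responsive genes, 5 to 1 for retinoid genes, 9 to 4 for peptide and prostanoid receptors, 10 to 4 for the BMP system, 15 to 9 for Wnt receptors and modulators, 19 to 13 for Hox genes, 7 to 4 for imprinted genes and 8 to 5 for matrix proteases. In the remaining lists it differed by at most 3 genes.

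The 3 arrays were alike, with Pearson correlations across probe sets between 0.993 and 0.995 and a median SD of 0.12 per gene. All 6 Y-linked genes measured were near background, the highest being Sry at 2.56. Xist, the RNA that silences 1 X chromosome in females, was read as a further control at 10.95, 11.15 and 10.98. Of the 68 genes restricted to other organs, 64 were near background, a share fixed by the rule that set the limit, and the list median was 1.99. The 4 above the limit were Thrsp (8.65, 9.12 and 8.75), a regulator of fat synthesis, Tnnt2 (7.09, 7.02 and 7.38), the cardiac troponin T, Mbp, a myelin protein, at a mean of 3.96, and Pomc, a hormone precursor, at a mean of 3.82. The housekeeping list, which also holds Xist, had a median of 9.75, and its dimmest member was Tbp at 5.10.

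The brightest gene of the juvenile uterus was Col3a1, the fibrillar collagen III of soft connective tissue, at 12.68, 12.68 and 12.81. Another fibrillar collagen gene, Col1a2, was also among the 20 brightest, at 12.15 ± 0.19 (SD, n = 3). Most of the others encode ribosomal proteins, from Rps28 at 12.36 to Rpl13a at 12.06, together with the translation factor Eef1a1 (12.71), the cytoskeletal actin Actb (12.30) and the actin-binding Tmsb10 (12.10). Ribosomal protein genes have many near-identical copies in the genome, so the level of any single one is uncertain.

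Stroma had 14 of 20 measured markers high and 5 moderate, with a list median of 8.84 against 4.17 over all genes. After the collagens, the small proteoglycan Dcn was at 11.75, 11.60 and 11.52, the mesenchymal filament protein Vim at 10.63, 10.44 and 10.48, and the matrix protein Postn at 10.16, 10.02 and 10.17. Lum, a proteoglycan that spaces collagen fibrils, was read at 9.72, 10.17 and 10.33. These 4 genes were high on all 3 arrays. Tcf21, a mesenchymal transcription factor, was the 1 stromal marker near background, at 2.33, 2.51 and 2.30 on its 1 probe set. Sfrp1, a secreted Wnt antagonist, was the dimmest of the rest at 5.89 ± 0.24 (SD, n = 3).

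Smooth muscle had 8 of 15 markers high, 6 moderate and 1 near background, with a median of 8.23. Tpm2, a tropomyosin, was at 11.42, 11.43 and 11.63, and Tagln, an actin-binding protein of smooth muscle, at 11.16, 11.07 and 11.15. Mylk, the kinase that starts contraction, was at 11.18, 10.89 and 11.16, and the muscle myosin Myh11 at 9.71, 9.39 and 9.59. Each of these contractile genes was high on every array. Acta2, the smooth muscle actin, which was picked out after its values were seen, was moderate at 5.91 ± 0.14 (SD, n = 3), and its other probe set was near background, at 3.13. Synm, an intermediate filament protein, varied most of the list, with 7.25, 6.54 and 6.12. Pericytes, the contractile cells around small vessels, had 2 of 6 markers high and none near background. The high markers were the PDGF receptor Pdgfrb at 9.22 ± 0.29 (SD, n = 3) and the potassium channel subunit Abcc9 at 9.07, 8.56 and 8.88.

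Simple epithelium had 6 of 13 markers high, 7 moderate and none near background, with a median of 7.35. Cldn3, a tight junction protein, was read at 9.77, 9.89 and 9.40, and the paired keratins Krt8 and Krt18 averaged 9.47 ± 0.11 and 9.40 ± 0.20 (SD, n = 3). Cdh1, the cell adhesion protein E-cadherin, was at 8.17, 7.91 and 8.02. None of the 13 had an SD over 0.5, and the list mean was 7.12, 7.19 and 7.05 on the 3 arrays. Epcam, an adhesion protein present on most simple epithelia, was moderate at 5.69 ± 0.13 (SD, n = 3).

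All 8 luminal markers were moderate, with a median of 4.92. Met, the receptor of hepatocyte growth factor, was at 6.14, 6.25 and 6.28, and Calb1, a calcium-binding protein of the lumen, at 6.29, 5.71 and 5.27. Array 3 was the lowest for 5 of the 8, Calb1, Cd55, Ltf, Prap1 and Wnt11. The median difference of the luminal markers from their own means was -0.27 on array 3. Over all genes above background, array 3 was the lowest for 2199 of 8990. Of 11 glandular markers, 3 were moderate and 8 near background. Foxa2, the transcription factor of gland formation, was read at 4.21, 4.53 and 4.76, above the background limit on every array. Cxcl15, a chemokine secreted by glands, was at 4.76, 5.82 and 6.17, with array 1 apart from the others. Cxcl17, another secreted chemokine, was at 5.49, 5.61 and 4.90. Other listed genes of mature secreting glands were near background. Lif, the cytokine that opens the uterus to implantation, was at 2.46, 2.40 and 2.40, and the thyroid hormone carrier Ttr at 3.54, 3.57 and 3.28. Prss28 and Prss29, proteases of uterine fluid, were at 1.79, 1.67 and 1.44 and at 3.09, 3.22 and 3.10. Sox9, a transcription factor of gland cells, was near background on all 3 probe sets, the brightest at 3.02, 3.12 and 2.91. With the limit at the highest Y-linked gene, 5 of the 11 glandular markers were near background in place of 8. In whole uterus, fewer cells of a type and less RNA per cell cannot be told apart.

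Endothelium had 2 of 12 markers high, 8 moderate and 2 near background. Esam, a junction protein of endothelial cells, was at 8.07, 7.98 and 8.03, and Cdh5, the endothelial cadherin, at 7.30, 7.08 and 7.21. Sox17 was high at 10.49, 10.27 and 10.10, but it is also a transcription factor of uterine epithelium and so does not mark vessels alone. Vwf, the clotting factor stored by endothelium, and Prox1, the lymphatic regulator, were near background at 3.26 ± 0.19 and 3.32 ± 0.38 (SD, n = 3). Of 11 macrophage markers, 1 was high (Csf1r at 7.61, 7.73 and 7.66, the receptor that macrophages need to survive), 8 were moderate and 2 near background. Lymphocyte markers were near background in 8 of 9 genes, all but the pan-leukocyte phosphatase Ptprc (5.31, 5.13 and 5.13), and neutrophil and mast cell markers in 10 of 11, all but Kit (5.52, 4.99 and 5.02), which other cells use too. With the limit at the highest Y-linked gene, 2 of the 9 lymphocyte markers and 7 of the 11 neutrophil and mast cell markers were near background, so the lymphocyte count rests on the limit.

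Ciliated epithelium had 9 of 10 markers near background, with the cilia regulator Foxj1 at 2.04, 1.94 and 1.86, and only Ovgp1, an oviduct glycoprotein, moderate (5.91, 5.42 and 5.79). Stratified epithelium had 8 of 10 near background, including Trp63, its master regulator, at 2.11. The exceptions were Krt10 (5.74) and the basal keratin Krt15, which was 3.75 on array 1 against 5.83 and 5.72 on the others. Ovary had 7 of 11 near background, with the steroid carrier Star at 1.87 and the egg coat gene Zp2 at 1.67, while Foxl2, an ovarian factor that is also made in uterine stroma, was at 7.37, 7.59 and 7.62. Skeletal muscle had 8 of 9 near background, with the fast myosins Myh1 and Myh4 at 1.54 and 1.67, but Acta1, the skeletal actin that smooth muscle can also make, was high at 8.14, 8.74 and 9.19. Nerve and Schwann cell markers were near background in 9 of 11, with adhesion molecule Ncam1 (7.15) and receptor Erbb3 (6.40) moderate. With the limit at the highest Y-linked gene, 5 of these 11, 5 of the 10 stratified and 6 of the 10 ciliated markers were near background. Of 8 markers of mesothelium, which also covers the uterus, 4 (50%, against 46.5% over all genes) were near background, including the surface protein Msln at 3.29, and the only high member was Wnt5a, which stroma also makes.

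Of 9 fat cell markers, 3 were high, 4 moderate and 2 near background. Car3, a carbonic anhydrase abundant in fat, was at 10.21, 10.23 and 10.89, Fabp4, a fatty acid carrier, at 8.48, 8.12 and 8.87, and the fat hormone Adipoq at 7.50, 7.61 and 8.11. The hormone gene Retn was at 6.29, 6.59 and 7.16. All 7 members above background were highest on array 3, where the median member was 0.42 above its own mean. Over all genes above background, array 3 was the highest for 3696 of 8990. Pparg, the master regulator of fat cells, and the hormone gene Lep were near background (2.94 and 2.07). The part of fat tissue in the other results was not tested.

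**Figure D1:**
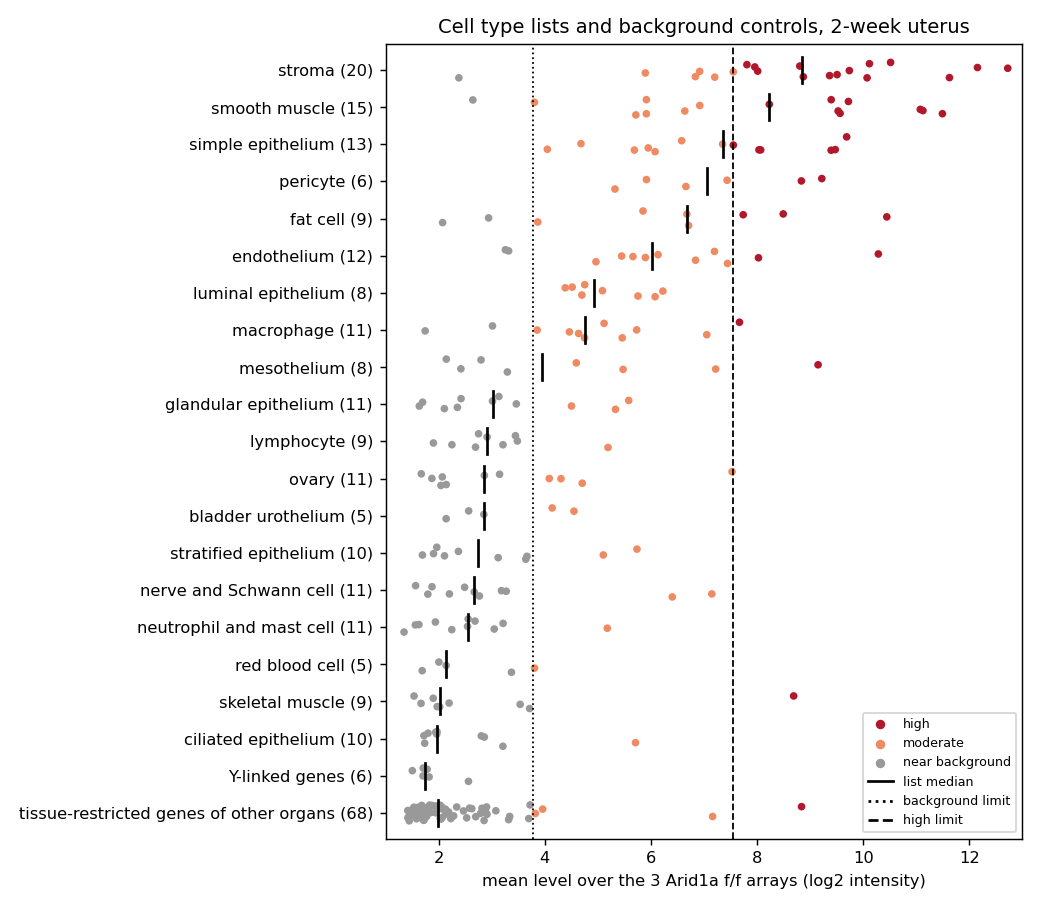
Mean level of each marker gene over the 3 Arid1a f/f arrays (x axis, log2 intensity) for 19 cell type lists and 2 control lists (y axis, number of measured genes in parentheses), with each point 1 gene coloured by its band and a black bar at the list median. Stroma and smooth muscle lie farthest right, with medians of 8.84 and 8.23, and the lists of cells foreign to the uterine wall lie mostly left of the dotted background limit at 3.79.

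Among steroid and related nuclear receptors, 4 of 24 were high, 9 moderate and 11 near background. The shares were 16.7%, 37.5% and 45.8%, and over all genes 43.5% were moderate and 46.5% near background. With the limit at the highest Y-linked gene, 3 of the 24 were near background. Esr1, estrogen receptor alpha, was high at 10.69, 10.83 and 10.87, and Pgr, the progesterone receptor, at 9.06, 9.61 and 9.70. Both were high on each array although the mice were prepubertal, and Pgr was lowest on array 1. Esr2, estrogen receptor beta, was near background at 2.08, 1.96 and 1.80, which is within the range of the Y-linked genes. The membrane protein Pgrmc1 was high at 9.98, 9.84 and 9.70, and the glucocorticoid receptor Nr3c1 was high at 7.88 on all 3 arrays. Nr2f2, the stromal orphan receptor COUP-TFII, was moderate at 7.23, 6.68 and 6.84, as were the thyroid hormone receptor Thra (6.48), the retinoid partner Rxra (5.98) and the retinoic acid receptor Rarg (5.25). The estrogen-binding membrane receptor Gper1 was weakly above the limit at 4.24 ± 0.13 and the mineralocorticoid receptor Nr3c2 at 4.02 ± 0.26 (SD, n = 3). The other retinoic acid receptors Rara and Rarb (3.00 and 2.78), the thyroid receptor Thrb (2.04) and the fat and lipid sensors Ppara, Ppard and Pparg (2.96, 3.46 and 2.94) were near background.

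Receptor coregulators were bright, with 7 of 16 high, 7 moderate and 2 near background. Hsp90aa1, the chaperone that holds steroid receptors ready for hormone, was at 10.18, 10.09 and 10.04, and the RNA helicases Ddx17 and Ddx5, which act as coactivators, averaged 10.58 ± 0.04 and 9.96 ± 0.12 (SD, n = 3). Nrip1, a corepressor of estrogen receptor, was at 7.99, 8.01 and 7.88. Fkbp4 and Fkbp5, cochaperones of the progesterone receptor complex, were near background at 2.70 and 2.66. Fkbp4 was read by 1 probe set, and the part of that probe set in the reading was not tested. Fkbp5 was near background on both of its probe sets.

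Genes known to respond to estrogen were spread over the bands, with 3 of 20 high, 12 moderate and 5 near background. The high members were the lysosomal protease Ctsd (10.49, 10.33 and 9.55), the growth factor Igf1 (10.06, 9.96 and 10.30) and Pgr itself. Ltf, the lactoferrin gene that estrogen induces strongly in adult uterus, was weakly moderate at 4.34, 5.04 and 4.16. The estrogen-induced genes Sprr2f (2.59, 2.88 and 2.98), Lcn2 (2.92, 2.64 and 2.98) and Clca3a2 (1.62, 1.49 and 1.41) were near background. Ramp3, a receptor partner for adrenomedullin, was 4.33 on array 1 against 5.91 and 6.27 on the others. Padi1, a protein-modifying enzyme, was picked out after its values were seen and showed the same split, with 2.50 on array 1 against 4.18 and 4.06.

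Progesterone-responsive genes were nearly all above background, with 4 of 17 high, 12 moderate and 1 near background. The transcription factors Hoxa10 (9.45, 9.24 and 9.41), Gata2 (9.42, 9.12 and 9.05) and Hand2 (7.92, 7.83 and 8.12) and the hedgehog receptor Ptch1 (8.77, 8.45 and 8.24) were high. Hand2 and Ptch1 were each above the background limit on only 1 of 3 probe sets. Zbtb16, a zinc finger factor that progesterone and glucocorticoids both induce, had the largest SD of all genes above background. Its levels were 7.25, 4.84 and 3.70, so that array 1 read moderate and array 3 near background. These are readings of its brightest probe set, and only 1 of its 3 probe sets averaged above the background limit. Acod1, an enzyme of itaconate synthesis that progesterone induces in the uterus, had the same order of arrays, with 5.15, 3.56 and 2.68. The retinoic acid hydroxylase Cyp26a1 was also highest on array 1, at 4.79 against 3.78 and 3.89.

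**Figure D2:**
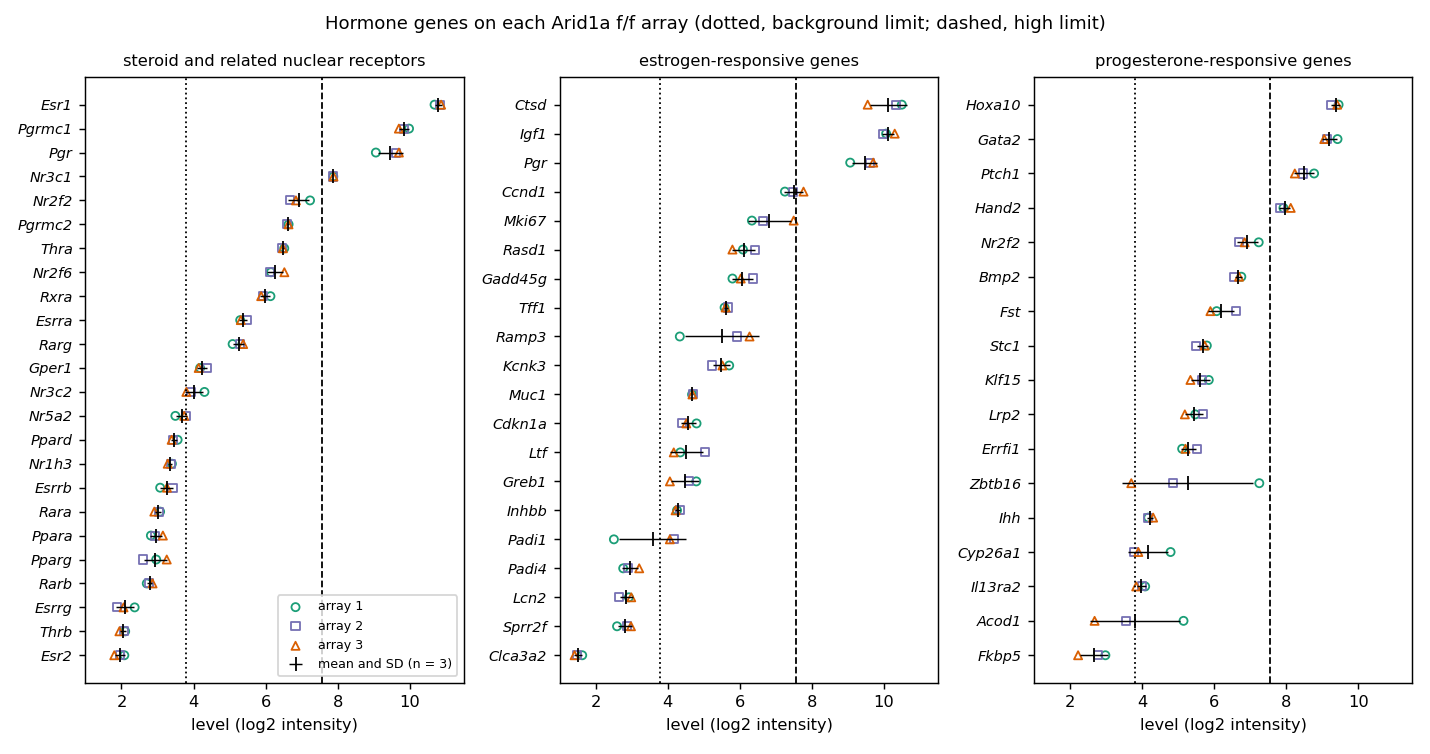
Level of each measured nuclear receptor, estrogen-responsive gene and progesterone-responsive gene (y axis, sorted by mean) on each of the 3 Arid1a f/f arrays (x axis, log2 intensity), with open symbols for arrays and a black bar for the mean and SD. Esr1 and Pgr stand right of the high limit, Esr2 stands at the far left, and Zbtb16 has the widest spread, from 3.70 to 7.25.

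Receptors for peptide hormones and prostanoids were high in 4 of 22 cases, moderate in 9 and near background in 9. The share near background was 40.9%, against 46.5% over all genes. The prostaglandin E receptor Ptger4 (8.76, 8.69 and 8.22), the adiponectin receptor Adipor2 (8.61, 8.51 and 8.20), the leptin receptor Lepr (8.69, 7.80 and 7.70) and the IGF receptor Igf1r (8.15, 7.57 and 7.41) were high. In these 4 genes array 1 was the highest, as it was in 10 of the 13 members above background. Over all genes above background, array 1 was the highest for 3206 of 8990. Oxtr, the oxytocin receptor of the labouring uterus, was near background on both probe sets, at 2.62, 2.32 and 2.64 on the brighter. Of 16 genes listed under steroid synthesis and breakdown, 3 were high, 5 moderate and 8 near background (50%, against 46.5% over all genes). These counts include the retinoic acid hydroxylases Cyp26a1 (4.15, moderate) and Cyp26b1 (2.96, near background), which are not steroid enzymes. The steroid carrier Star (1.87), Hsd3b1 (2.04), the adrenal Cyp11b1 (1.66) and the estrogen sulfotransferase Sult1e1 (1.87) were near background. The 3 high genes were members of the broadly expressed hydroxysteroid dehydrogenase family (Hsd17b11 at 9.72, Hsd17b10 at 8.31 and Hsd17b4 at 7.62).

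The promoters of the 2 estrogen receptor genes are shown because their genes lay in opposite bands, together with promoters of a hedgehog transducer (Smo, high), of the brightest gene (Col3a1) and of the dimmest control gene (Prm1, a sperm protamine). Each line gives the 250 bases before the start of transcription, 5′ to 3′, from RefSeq on build GRCm38.p6, with each CpG pair in capitals.
Esr1 promoter, chr10:4611739-4611988, plus strand: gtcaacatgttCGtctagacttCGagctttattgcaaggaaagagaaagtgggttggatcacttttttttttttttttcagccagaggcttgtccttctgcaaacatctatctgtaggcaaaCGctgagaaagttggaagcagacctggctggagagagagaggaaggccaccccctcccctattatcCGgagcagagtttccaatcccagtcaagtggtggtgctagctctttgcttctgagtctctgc
Esr2 promoter, chr12:76177260-76177509, minus strand: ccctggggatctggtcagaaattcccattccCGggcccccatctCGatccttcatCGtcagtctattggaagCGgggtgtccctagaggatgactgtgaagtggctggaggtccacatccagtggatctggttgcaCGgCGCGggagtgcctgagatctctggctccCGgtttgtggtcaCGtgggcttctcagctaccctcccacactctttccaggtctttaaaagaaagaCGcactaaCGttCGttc
Smo promoter, chr6:29735247-29735496, plus strand: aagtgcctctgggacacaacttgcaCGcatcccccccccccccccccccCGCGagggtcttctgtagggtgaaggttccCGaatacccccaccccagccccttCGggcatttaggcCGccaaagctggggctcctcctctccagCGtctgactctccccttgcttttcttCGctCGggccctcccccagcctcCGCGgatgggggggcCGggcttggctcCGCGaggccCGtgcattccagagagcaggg
Col3a1 promoter, chr1:45311288-45311537, plus strand: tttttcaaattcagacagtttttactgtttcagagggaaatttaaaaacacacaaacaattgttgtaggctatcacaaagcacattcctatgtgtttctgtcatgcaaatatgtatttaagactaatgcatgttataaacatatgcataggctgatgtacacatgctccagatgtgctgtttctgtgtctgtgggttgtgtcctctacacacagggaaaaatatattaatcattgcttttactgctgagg
Prm1 promoter, chr16:10796824-10797073, minus strand: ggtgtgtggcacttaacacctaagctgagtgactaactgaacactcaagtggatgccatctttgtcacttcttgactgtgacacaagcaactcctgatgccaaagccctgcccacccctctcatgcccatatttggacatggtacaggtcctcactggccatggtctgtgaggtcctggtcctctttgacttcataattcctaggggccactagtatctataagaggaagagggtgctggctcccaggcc
These bases hold 4 CpG pairs for Esr1, 12 for Esr2, 15 for Smo and 0 for both Col3a1 and Prm1. The table lists 2 promoters for Esr1, of which the first is shown. Esr2, near background, had more CpG pairs than Esr1, in the high band, and among these 5 the CpG count did not follow the band. In the 300-base window (250 before and 50 after the start), the observed over expected CpG ratio, where 1 means no loss of CpG, had a median of 0.81 over 1379 of 1682 high genes and 0.78 over 5909 of 7308 moderate genes. It was 0.17 over 56 of the 68 genes restricted to other organs and 0.39 over all 27025 promoters of the table. The near-background band had promoters for only 77.4% of its genes, under the 80% needed, so its check is void. The motif TATAAA was found on either strand in 7.98% of high, 6.19% of moderate and 30.4% of organ-restricted genes, against 14.2% of all promoters. The consensus palindromic estrogen response element was in 0.0666% of all promoters and in none of the 16 promoters of estrogen-responsive genes. At so low a share nearly any set of 16 promoters would hold none, so this count cannot set these genes apart. Col3a1 has a TATAAA match in its window and the other 4 have none.

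Of 30 Hox genes measured, 3 were high, 8 moderate and 19 near background. Hoxa10 and Hoxa9 were high at 9.37 ± 0.11 and 8.67 ± 0.07 (SD, n = 3), and Hoxa11 stood at the high limit with 7.54, 7.43 and 7.68. These 3 neighbours of the A cluster pattern the uterus and oviduct. Hoxa13, which marks the cervix and vagina, was near background at 1.68, 1.78 and 1.78, as were all 5 measured genes of paralog groups 12 and 13. Of the paralogs of groups 9 to 11 in other clusters, Hoxd11 was moderate, the band that Hoxa11 also fell in, at 4.54, 4.83 and 5.06. The other measured ones were near background, Hoxc9 at 3.70, Hoxb9 at 3.18 and Hoxc10 at 2.06. Hoxd9, Hoxd10 and Hoxc11 were not measured. Hoxd8 (7.78, 7.66 and 7.72) was the only high gene among those measured outside cluster A. In cluster B Hoxb6, Hoxb3 and Hoxb2 were moderate, the first at 6.37 and the last at 5.60. Cluster C had 6 of 7 genes near background, with only Hoxc6 moderate at 4.04.

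**Figure D3:**
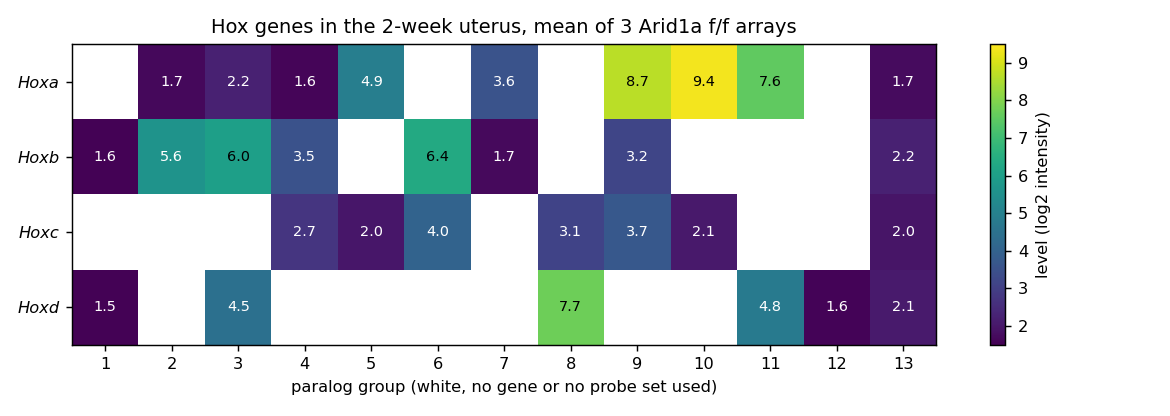
Mean level of each measured Hox gene over the 3 Arid1a f/f arrays (colour and printed value, log2 intensity), with clusters in rows and paralog groups 1 to 13 in columns. The bright run is Hoxa9 to Hoxa11, and every measured gene of groups 12 and 13 lies below the background limit of 3.79.

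Of transcription factors of the Müllerian duct, 6 of 26 were high, 13 moderate and 7 near background. Besides Sox17, these were the TALE homeobox factors Meis2 (8.90, 8.62 and 8.77) and Meis1 (7.84, 7.76 and 7.89), which work with Hox proteins, Msx1 (8.43, 8.57 and 8.30), Emx2 (8.14, 8.09 and 8.23), which duct formation needs, and the stromal factor Hand2. Wt1, a factor of urogenital mesenchyme, was moderate at 7.22, as were Tbx3 (7.53), Osr1 (6.84), Osr2 (6.82), Dach1 (6.03) and the paired Dlx5 and Dlx6 (5.91 and 4.94). Msx2 was at 4.14 and Amhr2, the receptor that makes the male duct regress, at 4.99, 5.13 and 5.56. The members near background included Pax8 (1.63, 1.71 and 1.84), Lhx1 (2.12, 2.46 and 1.88), Eya1 (1.96) and Gata3 (1.95). Pax8, which also marks adult uterine and oviduct epithelium, was read by 1 probe set.

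Wnt5a, a ligand of stroma that orients cells and is needed for glands, was the 1 high Wnt of 19, at 8.94, 9.15 and 9.36. Another 8 ligands were moderate and 10 near background (52.6%, against 46.5% over all genes). With the limit at the highest Y-linked gene, 6 ligands were near background. The stromal ligands Wnt16 and Wnt4 were at 6.77, 6.41 and 6.18 and at 5.25, 4.99 and 5.30. The epithelial ligands Wnt7a, Wnt11 and Wnt7b, of which Wnt7a is required for gland formation, averaged 4.70 ± 0.15, 5.09 ± 0.17 and 4.30 ± 0.04 (SD, n = 3). Wnt9a, Wnt6 and Wnt5b were also moderate (5.50, 4.66 and 4.34). Wnt1, Wnt3, Wnt3a, Wnt2 and Wnt10a were near background, at 1.76, 1.35, 3.25, 3.19 and 1.95. Among 51 Wnt receptors, modulators and transducers, 6 were high, 30 moderate and 15 near background. Ctnnb1, the beta-catenin gene, was at 10.97, 10.90 and 10.95, Wls, which carries Wnts to the cell surface, at 8.77, 8.64 and 8.64, and Fzd1, a frizzled receptor, at 8.37, 7.83 and 7.95. The secreted modulators Rspo3, which strengthens Wnt signals, and Sfrp2, which binds Wnts, were at 9.20, 8.54 and 8.46 and at 8.66 ± 0.31 (SD, n = 3). Fzd1 and Rspo3 were each above the background limit on only 1 of 2 probe sets. Of 9 frizzled receptors measured, 1 was high, 5 moderate and 3 near background. The antagonists Frzb, Dkk1 and Dkk4 were near background (1.76, 1.80 and 1.94), and so was the transducer Dvl2 at 1.86, while its relative Dvl1 was high at 8.34.

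Of 16 hedgehog pathway genes, 3 were high, 9 moderate and 4 near background. Gas1, a ligand coreceptor, was at 9.93, 9.66 and 9.75, the receptor Ptch1 at 8.77, 8.45 and 8.24, and the transducer Smo at 7.94, 7.79 and 7.98. Ptch1 was above the background limit on only 1 of its 3 probe sets. The transcription factors Gli2, Gli1 and Gli3 were moderate, averaging 6.83 ± 0.17, 6.49 ± 0.10 and 5.72 ± 0.26 (SD, n = 3). Ihh, the ligand of uterine epithelium, was weakly above background at 4.17, 4.15 and 4.30, and Shh and Dhh were near background (1.83 and 2.61). The coreceptors Cdon and Boc were moderate (7.02 and 4.69), as were the inhibitor Sufu (6.01) and the ligand exporter Disp1 (3.86). Hhip, a target and inhibitor of the pathway, was near background on all 4 probe sets, the brightest at 2.47, 2.68 and 2.78. With the limit at the highest Y-linked gene, 1 of the 16 was near background.

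Notch genes were high in 2 of 13 cases, moderate in 8 and near background in 3. The ligand Jag1 (7.82, 7.60 and 7.40) and the nuclear effector Rbpj (7.71, 7.48 and 7.64) were high, and the receptors Notch2 and Notch3 were moderate at 7.04 and 6.66. None of 15 retinoid genes was high, 10 were moderate and 5 near background. Aldh1a2, the stromal enzyme that makes retinoic acid, was steady at 6.38, 6.33 and 6.52, and the retinol dehydrogenase Rdh10 was at 7.63, 7.27 and 7.25. Other retinoid genes were among the least steady of the lists, with 4 of the 10 above background over an SD of 0.5, against 1.66% of all genes above background. Aldh1a3, the epithelial form of the enzyme, was highest on array 1 (6.47, 5.33 and 4.79), whereas the binding proteins Crabp1 (4.24, 4.41 and 5.76) and Crabp2 (4.13, 3.78 and 5.23) were highest on array 3.

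The insulin-like growth factor system had 9 of 17 members high, 5 moderate and 3 near background. Igf1 was high as given above, and Igf2, the fetal growth factor, was high at 7.99 (picked out after its value was seen). Of 5 binding proteins, which hold IGF in the tissue, 4 were high, with Igfbp7 at 11.63, 11.59 and 11.63, Igfbp4 at 10.60, 10.68 and 10.75, Igfbp5 at 10.23, 10.28 and 10.79 and Igfbp3 at 10.60, 10.29 and 9.87. Igfbp5 was highest on array 3 and Igfbp3 lowest there. Irs1, which carries the signal from the receptor, was at 9.29, 9.49 and 9.48. The liver partner Igfals was near background at 2.95, as were the fetal RNA-binding proteins Igf2bp1 and Igf2bp3 (3.62 and 3.27).

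Of 20 FGF ligands, 18 were near background and 2 moderate, Fgf1 (4.30, 4.28 and 4.72) and the stromal Fgf7 (4.23, picked out after its value was seen). Fgfr2, the epithelial receptor of Fgf7 and Fgf10, was high at 8.22, 7.98 and 7.86, and Fgfr1 was moderate at 6.25, 5.73 and 5.95. Of the 5 FGF receptors, 2 were near background, Fgfr3 (3.79) and Fgfr4 (2.82), both named after their values were seen. With the limit at the highest Y-linked gene, 13 of the 29 genes of the FGF system were near background in place of 22. Of 7 EGF family ligands, 6 were near background and Tgfa was moderate at 4.55, 4.46 and 4.21. The receptors Egfr (6.45, 6.53 and 6.44), Erbb3 (6.44, 6.64 and 6.13) and Erbb2 (5.01, 5.24 and 5.17) were moderate, and Erbb4 was near background.

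The BMP, activin and TGF-beta system was high in 13 of 43 cases, moderate in 20 and near background in 10. Its receptors were well read, with 4 of 11 high and 5 moderate, and all 7 SMAD transducers were above background, 3 of them high. Tgfbr2 was at 9.18, 9.11 and 9.12 and its coreceptor Tgfbr3 at 9.36, 8.94 and 8.82. The BMP target genes Id4 (9.41, 9.08 and 9.16) and Id2 (9.10, 8.69 and 8.97) were high. Gdf10, a secreted member of the family, was the 1 high ligand of 14 (9.43, 9.33 and 9.73). The activin antagonist Fst was moderate at 6.07, 6.60 and 5.89, and the BMP antagonists Nog and Grem1 were near background (1.82 and 2.11).

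PDGF and VEGF genes were nearly all above background, with 4 of 21 genes of these and the related KIT and HGF systems high, 16 moderate and 1 near background. The mesenchymal receptors Pdgfra (10.05, 9.65 and 9.52) and Pdgfrb were high, and the ligand Pdgfc was steady at 8.41, 8.38 and 8.47. Hgf, the ligand of Met, was the member near background (3.02, 3.39 and 3.34). Imprinted growth genes, expressed from 1 parental copy and including both promoters and inhibitors of growth, split into 8 high, 3 moderate and 7 near background of 18. Their share near background was 38.9%, against 46.5% over all genes. Plagl1, the zinc finger factor of this network, was at 9.75, 9.65 and 9.93, the noncoding RNA Meg3 at 8.93, 9.43 and 8.79 and the signalling adaptor Grb10 at 8.59 ± 0.16 (SD, n = 3), while Peg10 and Zim1 were near background (1.53 and 1.70).

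Cell cycle genes were moderate for the most part, with 3 of 27 high, 21 moderate and 3 near background. Ccnd2, a cyclin of early G1, was at 9.04, 9.01 and 9.05, the replication helicase subunit Mcm7 at 8.23, 8.33 and 8.73 and the kinase Cdk4 at 7.67, 7.99 and 8.26. Mki67, the proliferation marker Ki-67, was at 6.33, 6.63 and 7.49, moderate on all 3 arrays and highest on array 3. The mitotic genes Birc5 (4.66, 5.10 and 6.10) and Bub1 (3.58, 3.69 and 4.98) and the nucleotide enzyme Rrm2 (5.43, 5.82 and 6.78) varied most. Of the 24 members above background, 21 were highest on array 3 and 13 had an SD over 0.5. Over all 8990 genes above background, 3696 were highest on array 3 and 149 had an SD over 0.5. With each array centred on its median 22 of the 24 cell cycle genes were highest on array 3. With quantile normalization repeated over the 3 arrays 20 of 24 were. Cdk2, a kinase of every dividing cell, was near background at 1.23 on its 1 probe set, and the part of that probe set in the reading was not tested. The inhibitors Btg1 (9.83) and Cdkn1b (8.39), which hold cells out of the cycle, were high, and Cdkn2a and Cdkn2b were near background (1.75 and 2.44).

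**Figure D4:**
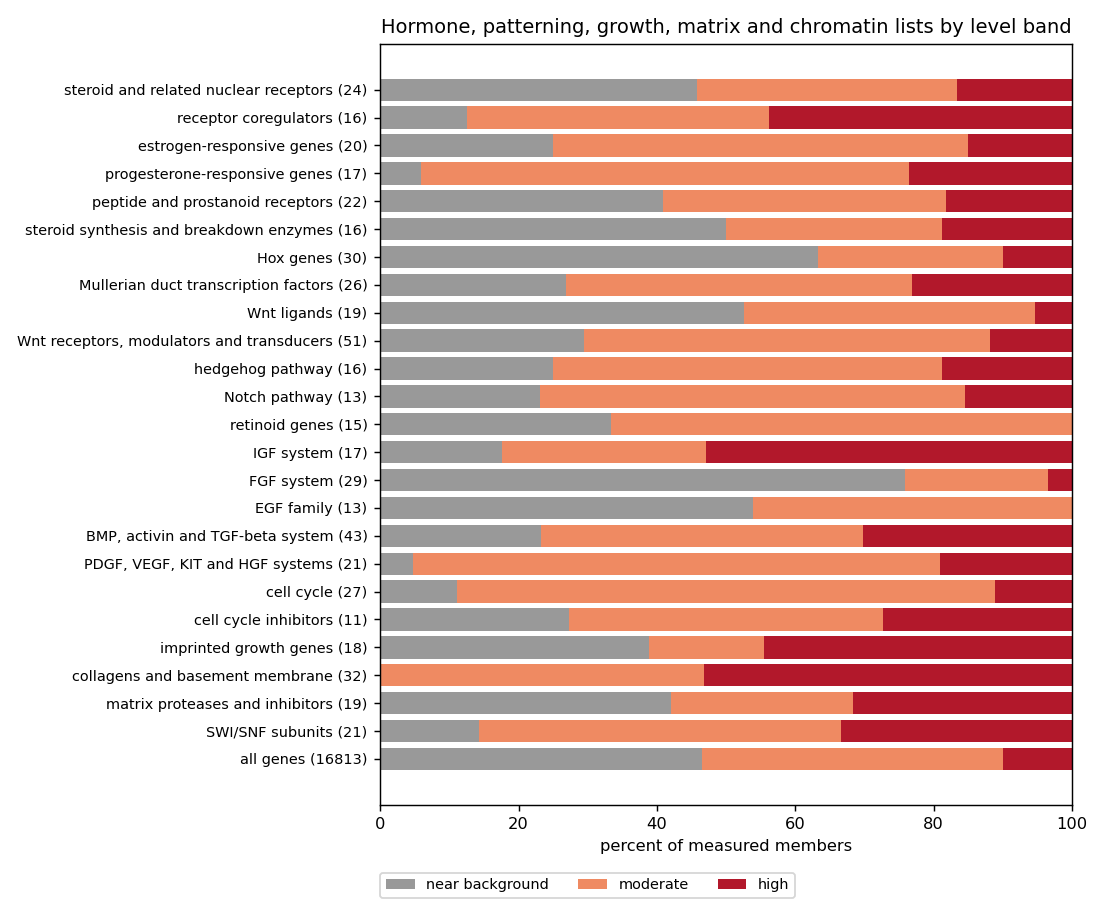
Percent of measured members (x axis) that were near background, moderate or high in each hormone, patterning, growth, matrix and chromatin list (y axis, number of measured genes in parentheses), with all 16813 genes at the bottom. The FGF system and Hox genes have the widest grey bars, with 22 of 29 and 19 of 30 genes near background, and collagens and the IGF system the widest red bars, with 17 of 32 and 9 of 17 genes high.

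Of 32 collagens and basement membrane genes, 17 were high, 15 moderate and none near background. After Col3a1 and Col1a2 came Sparc, a collagen-binding protein (10.59, 10.35 and 10.60), Col6a2 of the pericellular matrix (9.95, 10.33 and 10.74), Col4a1 of the basement membrane (10.08, 9.96 and 10.28) and fibronectin, Fn1 (9.81, 10.12 and 10.29). The dimmest was Col4a3 at 3.98. Array 3 was the highest for 21 of the 32, and the median member was 0.17 above its own mean there, while over all genes above background array 3 was the highest for 3696 of 8990. Proteases and inhibitors were split, with 6 of 19 high, 5 moderate and 8 near background (42.1%, against 46.5% over all genes). The high ones included the collagen-degrading Mmp2 (9.40, 9.40 and 9.72), its activator Mmp14 (8.32, 8.22 and 8.41) and the inhibitors Timp2 (9.86, 9.61 and 9.57) and Timp3 (10.02, 9.48 and 9.41). Mmp10, Mmp12 and the plasminogen activator Plau were near background (2.42, 1.67 and 2.01).

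Arid1a, the gene targeted in this series, codes for a part of SWI/SNF, a protein complex that moves nucleosomes. It was read by 1 probe set at 7.54, 7.58 and 7.71, at the lower edge of the high band. Of 21 SWI/SNF subunits, 7 were high, 11 moderate and 3 near background. Smarcd2 was at 8.96, 9.11 and 9.16, the ATPase Smarca2 at 8.68, 8.32 and 8.47, and its alternative Smarca4 at 7.06, 7.16 and 7.47. Arid2 and Pbrm1, subunits of the PBAF form of the complex, were high at 8.16 and 8.15. Actl6b and Dpf1, subunits of neurons, were near background at 2.15 and 3.06.

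Of 8990 genes above background, 149 (1.66%) had an SD over 0.5. Array 3 was the highest for 84 of the 149, array 1 for 56 and array 2 for 9. Over all 8990 genes above background, array 3 was the highest for 3696, array 1 for 3206 and array 2 for 2088. Leaving out array 2 raised the count to 278, while leaving out array 1 or array 3 gave 139 and 148. The 20 genes of largest SD included Zbtb16, Acod1, Aldh1a3 and Npas2, a clock factor, all highest on array 1. Sult1d1, a sulfotransferase, was also highest there (8.88, 7.91 and 6.48), as was S100g, a calcium-binding protein that estrogen induces (7.94, 7.68 and 6.14). Krt15, Ramp3 and the ubiquitin ligase gene Mid1 (4.31 ± 1.30, SD, n = 3) were lowest on array 1. For Zbtb16 and Mid1 only 1 of 3 probe sets averaged above the background limit, and for Aldh1a3 and Npas2 only 1 of 2. The protease inhibitor A2m was at 7.31, 8.67 and 9.31, and the mitotic motor Kif20a was highest on array 3 (3.93, 4.08 and 5.47). Progesterone-responsive genes had a list mean of 6.25, 5.88 and 5.67 on the 3 arrays, to which Zbtb16 (range 3.55) and Acod1 (range 2.47) gave the widest ranges. Their median differences from each gene's own mean were smaller, at 0.12, -0.08 and -0.14. Cell cycle genes had list means of 5.38, 5.54 and 6.10, and fat cell genes 5.96, 5.83 and 6.47, against 4.39, 4.39 and 4.41 over all genes. What these differences between arrays come from was not tested.

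**Figure D5:**
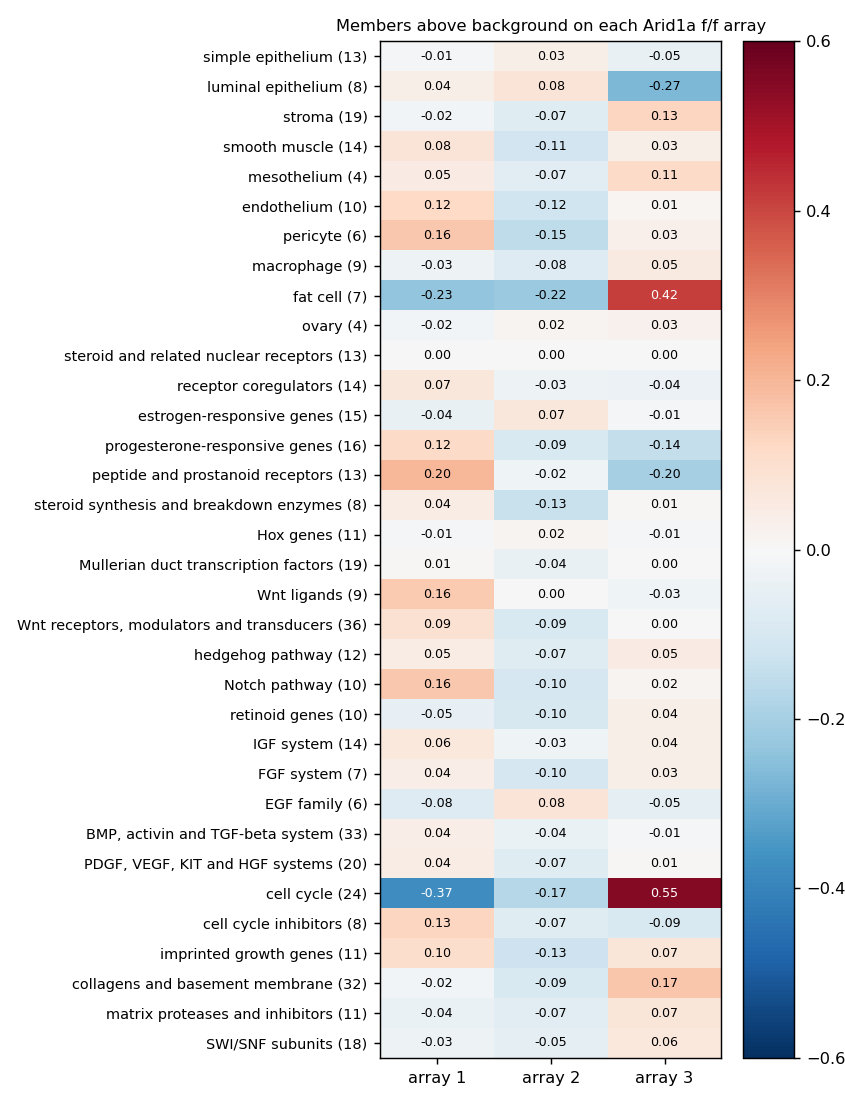
Median difference of a list's members above background from each gene's own mean over the 3 arrays (colour and printed value, log2), for lists with at least 4 such members (number in parentheses), one column per Arid1a f/f array. Cell cycle and fat cell genes are highest on array 3, by 0.55 and 0.42, and most other lists stay within 0.2 on every array.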

How the data were processed

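RNA of uterus was hybridised to Affymetrix arrays, and the authors deposited 1 value per probe set and array. The deposited values are intensities on a linear scale, and the submitters' processing notes name RMA, which corrects background, normalizes by quantiles and summarises the probes of a set. The version and annotation used upstream are not given in the sources used here. Array medians were 6.46, 6.59 and 6.34. Only the 3 Arid1a f/f arrays were used, with the other 3 serving in 1 alternative for choosing probe sets.

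The log2 of each value was taken with no added constant, in Python 3.11.15 with numpy 2.4.6, pandas 2.3.3 and matplotlib 3.10.9. Probe sets with several symbols (830) or none (9028) were left out, and 8764 of the 16813 genes had 1 probe set. Symbols came from the platform annotation as GEO holds it. With 1 group no test was run, and mean and SD over 3 arrays are given. Precision is limited by having only 3 arrays. The scripts were tested on simulated data.

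Members and gene lists were chosen with earlier results of these data known. All measured members of the nuclear receptor, hedgehog, Hox, Müllerian factor, Wnt ligand and glandular lists could be named. Of other lists up to 6 of highest mean, 4 of lowest mean and 3 of largest SD above background could be named, and over all genes the 20 brightest and the 20 of largest SD. Of the 16813 genes, 13342 matched a promoter in the RefSeq table by gene ID or symbol.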

Additional observations from a re-analysis of the deposited data

How the results depend on the processing

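The results are counts of genes in bands, and 16 alternative settings were run. Repeating the quantile normalization, centring arrays, adding 1 before the log, choosing probe sets over all 6 arrays, leaving out _x_at probe sets and leaving out 1 array kept every band count, over all genes and over listed genes, within 1.5 times. Raising the background limit to the 99th percentile of organ-restricted genes (7.71) put it above the high limit, so that no gene was moderate (0), 15344 genes and 541 listed genes were near background, and 9 genes exceeded an SD of 0.5. The highest Y-linked gene or the median of all probe sets as limit left 135 or 146 listed genes near background. A high limit at the 75th percentile gave 4204 high and 4786 moderate genes, with 243 and 180 among listed genes, and one at the 95th gave 841 high genes. Averaging all probe sets of a gene lowered the highest Y-linked gene to 1.99 and the count of variable genes to 94, and leaving out 1 array gave between 139 and 278 such genes. Of 664 listed genes, 502 kept their band in all 10 settings that leave both limit rules alone, and 339 in all but the 99th percentile setting. A gene absent from a setting was counted as kept, and 655 listed genes remained without _x_at probe sets. With the median probe set of a gene, 128 listed genes changed band, 6 of them between high and near background. Over all genes 2804 changed band in that setting, 104 of them between high and near background. Of 8049 genes with more than 1 probe set, 4154 (51.6%) had probe sets on both sides of the background limit. No paired analysis was possible because the results come from 1 group with no test.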

Other observations

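Gene families picked by the stem of their symbols, after the levels had been seen, marked both ends of the scale. All 32 vomeronasal receptors and all 20 beta-defensins measured were near background, as were 38 of 39 olfactory receptors and 37 of 38 keratin-associated proteins, with family medians between 1.55 and 1.74. Of 78 potassium channel subunits, 61 were near background, and the 1 high member was Kcnk1 at 8.52. Among 15 subunits of GABA-A receptors 14 were near background, and the exception was Gabrp, the pi subunit known from uterus, at 5.41. At the other end, 28 of 40 ribosomal proteins and 26 of 38 genes of mitochondrial complex I were high, yet 6 and 2 members of these families were near background. In 326 zinc finger genes with a Zfp symbol, 209 were moderate and 11 high.

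Clock genes were looked at because Npas2 was among the genes of largest SD. Of 13 clock genes above background, 11 were highest on array 1 and 10 lowest on array 3. Npas2, which prompted the look, is counted in both. Over all 8990 genes above background, 3206 were highest on array 1 and 2199 lowest on array 3. Dbp, an output gene of the clock, was at 8.64 ± 0.34 (SD, n = 3), and Rora, which drives the clock gene Arntl, at 6.94, 6.35 and 5.98. Npas2 was at 5.03, 3.40 and 3.11, while Clock itself was steady at 5.91, 5.95 and 5.76. What these differences come from was not tested.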
